A study of Saccharomyces cerevisiae with 19 samples.

Results

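The zone described here is the stretch of chromatin that lies 10 to 20 kb inward from the chromosome ends of budding yeast. Its members are the tiling-array probes on chromosomes 1 to 16 whose midpoint is at least 10 and under 20 kb from an end, 877 of 41480 chromosomal probes (2.11%). On left ends the distance was the midpoint coordinate, and on right ends it ran from the outermost probe of the chromosome. Members were found at 31 of 32 ends, and the right end of chromosome 1 had none. The right end of chromosome 8 had 1 member, the left end of chromosome 9 had 2 and the left end of chromosome 10 had 1. The other 28 ends had 9 to 39 members each, and their mean over the zone was tested as 1 window per end. At 3 left ends, of chromosomes 9, 10 and 16, the outermost probe of the array itself lies over 10 kb in.

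Budding yeast silences its chromosome ends with the SIR complex. The telomere-repeat binding protein Rap1 recruits Sir3 and Sir4, the deacetylase Sir2 removes acetyl groups from the tail of histone H4, and Sir3 binds the deacetylated nucleosomes, which allows the complex to extend inward from the telomere. The methyltransferase Dot1 modifies the core of histone H3, a mark that lowers the affinity of Sir3 for the nucleosome. Genes in the subtelomeric zone often belong to families for sugar, iron, cell-wall and amino acid metabolism and are weakly expressed in rich medium.

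Binding of Sir3 was measured by chromatin precipitation and hybridisation (ChIP-chip) on 19 arrays in 11 groups, with precipitated DNA in Cy5 and whole cell extract in Cy3, from cells growing exponentially in rich glucose medium. There were 8 groups of 2 arrays and 3 groups of 1 array, so the number of arrays limits the precision. All strains carried a tagged RAP1 (GFP-RAP1 or RAP1-GFP, marked with LEU2). WT (yAT191) had in addition ade2-1::ADE2, ppr1Δ::HIS3 and, at ADH4 on the left arm of chromosome 7, an insertion written adh4::URA3-4xUASG-(C1-3A)n, which ends in telomere repeats and replaces the natural left end. The group called pGPD-SIR3 here (yAT1254) was this WT background with the GPD promoter in front of SIR3 (NAT marker), and pGPD-SIR3-A2Q (yAT1256) was the same with the sir3-A2Q allele, which changes the amino-terminal alanine that is normally acetylated. pADH-SIR3 (yAT2627), pTEF-SIR3 (yAT2629) and a further pGPD-SIR3 strain (yAT2554, 1 array) carried ade2-1::ADE2 and hmlΔ::HPH, which removes the silent mating cassette HML near the left end of chromosome 3, and none of their genotypes lists the ADH4 insertion. pGPD-SIR2 (yAT1667, 1 array) had RDN1::ADE2 and sir2::GPD-SIR2(KanMX), and pGPD-SIR2 pGPD-SIR3 (yAT1668) had sir3::GPD-SIR3(NAT) on top of these. Another pGPD-SIR3 strain (yAT2476, 1 array) listed only the tagged RAP1 and the promoter replacement. The last pair of groups, NAM pGPD-SIR3 (yAT1254) and NAM dot1 pGPD-SIR3 (yAT3183, with dot1::KanMX added), was grown with 5 mM nicotinamide (NAM), an inhibitor of Sir2, and fixed 8 h after transfer to fresh medium.

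Ends are written as chromosome and side, chr5L for the left end of chromosome 5. All levels below are log2 ratios of precipitate over input after subtraction of each array's median, so 0 is the typical probe of that array. Of the 877 members, 754 had a ratio on every array, and between 818 and 869 on a single array. The 754 gave the levels of windows, probes and genes below. Values in 1-kb steps and at 10 to 13 or 17 to 20 kb used every member measured on the array. Whether the 2 arrays of a group came from separate cultures is not stated in the labels, so p-values measure only how far these arrays differ, which may be technical. Groups were compared with limma in 1 fit over all 19 arrays, on 1200 windows of 10 kb and, separately, on 36515 probes of the whole genome. A window or probe counts as higher or lower where its Benjamini-Hochberg adjusted p in that fit was under 0.05. Where a group has 1 array, the fit gives it the spread of the other groups. Deposit and slide were fitted as blocks in some settings. The deposit was inferred from the numbering of the samples, and the slide from array names of the first deposit. The 7 arrays of the later deposit carry no slide name and were treated as 1 slide level. Several comparisons share the WT or the pGPD-SIR3 arrays, so their results are not independent of each other. Overlap was read on the same arrays that made the calls, so a lack of it at a called window is no further evidence.

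Averaged over the 28 windows, Sir3 was low in WT and higher in the strains with strong SIR3 promoters. In such bulk samples, less Sir3 on each chromosome and Sir3 on fewer cells' chromosomes cannot be told apart. WT had a mean level of 0.92 ± 0.09 (SD, n = 2), pADH-SIR3 1.10 ± 0.09 (n = 2), pTEF-SIR3 2.73 ± 0.42 (n = 2) and pGPD-SIR3 2.96 ± 0.19 (n = 2). These means include chr3L and chr7L, where HML and the ADH4 insertion differ between strains. WT was at 3.58 and 5.22 there, and pADH-SIR3 at 0.655 and 2.54. In strains with the insertion, distances at chr7L are not those to the strain's own end. Means without these 2 ends were not computed. The single arrays of pGPD-SIR3 in yAT2554 and yAT2476 were at 2.71 and 2.59, inside the range of the strong promoters. The A2Q mutant behind the same GPD promoter had 0.04 ± 0.02 (n = 2), which is the level of a typical probe. Both groups with extra SIR2 were above the WT mean, pGPD-SIR2 at 1.22 and pGPD-SIR2 pGPD-SIR3 at 2.44 ± 0.57 (n = 2). After release from NAM the mean was 1.92 ± 0.21 (n = 2) with DOT1 and 1.41 ± 0.24 (n = 2) in dot1.

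The level of the zone lay between that of its outer and its inner neighbour. In WT the mean was 2.95 ± 0.08 in the outermost 10 kb, 0.92 in the zone and 0.32 ± 0.06 in the next 10 kb inward (SD, n = 2). In pGPD-SIR3 the corresponding means were 5.47 ± 0.31, 2.96 and 1.21 ± 0.09 (SD, n = 2). Within the zone, over the ends with probes in both parts on every array, pGPD-SIR3 had 3.80 ± 0.24 at 10 to 13 kb and 2.08 ± 0.17 at 17 to 20 kb, and WT had 1.33 ± 0.13 and 0.60 ± 0.09. The pADH-SIR3 arrays combined an outer level above WT, 1.95 ± 0.15, with an inner level of 0.50 ± 0.08. These means include chr7L and chr3L, whose genotype differs between the 2 groups. At 17 to 20 kb chr7L was at 5.68 in WT and 2.65 in pADH-SIR3, and chr3L at 1.31 and 0.06. Inner levels without these ends were not computed, so their order between the 2 groups is not settled here. The left ends had the higher mean level. The 14 left windows averaged 3.77 ± 0.26 and the 14 right windows 2.16 ± 0.12 in pGPD-SIR3, against 1.29 ± 0.15 and 0.55 ± 0.04 in WT. That difference between sides was not tested. The left windows include chr3L, near HML, and chr7L, with the ADH4 insertion, at 3.58 and 5.22 in WT. In the promoter strains with hmlΔ::HPH and no listed insertion, left and right were at 1.18 and 1.01 in pADH-SIR3. In pTEF-SIR3 they were at 3.37 and 2.09. The right ends are measured from the outermost probe, and the distance of that probe to the telomere is not stated in the files.

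**Figure D1:**
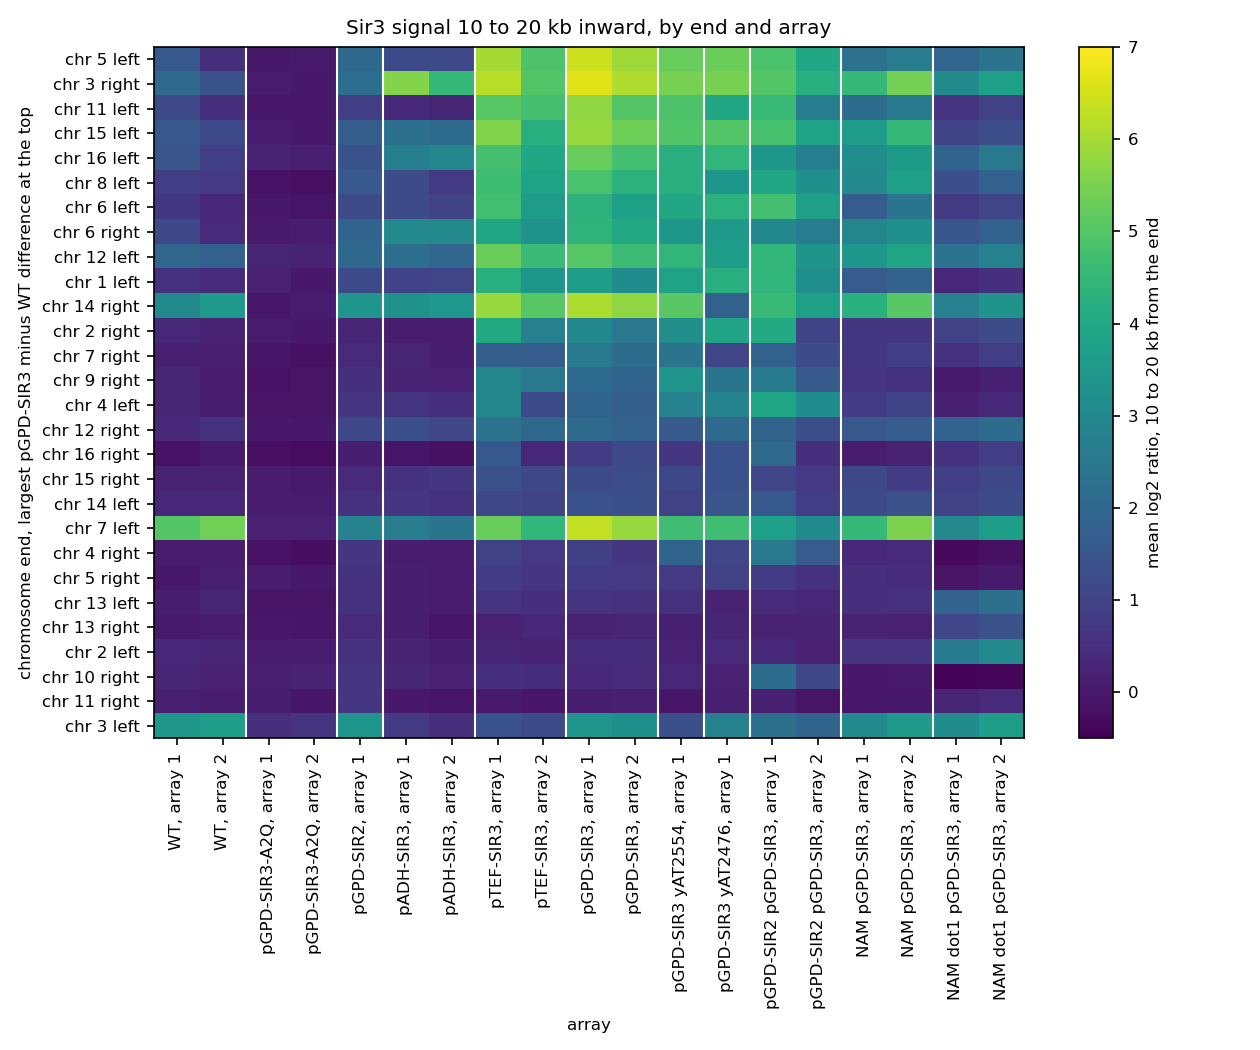
Mean log2 ratio of Sir3 precipitate over input (array median at 0, colour) in the zone 10 to 20 kb inward, for the 28 ends with a window (rows, ordered by the difference between pGPD-SIR3 and WT) and the 19 arrays (columns, white lines between groups). At the upper 11 ends the arrays with the TEF or GPD promoter in front of wild-type SIR3, without NAM, are at 2.65 or above, except yAT2476 at chr14R (1.82), the A2Q arrays stay near 0, and the left ends of chromosomes 7 and 3 are already bright in WT.

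The share of the zone that Sir3 occupied can be read in steps of 1 kb. A step was counted where its mean log2 ratio was above 1, and each array had 246 to 257 measured steps. Steps used all members measured on an array, so the probe sets differ between arrays. At chr7L 17 members entered almost only in strains without the ADH4 insertion, and at chr14R 22 members almost only in yAT2476. On the WT arrays 31.6% and 18.6% of steps were above 1, and on the pADH-SIR3 arrays 33.3% and 30.6%. The pTEF-SIR3 arrays had 64.9% and 61.3%, and the pGPD-SIR3 arrays 66.1% and 64.4%. The strong-promoter arrays thus did not overlap with WT or pADH-SIR3 in this share, and pTEF-SIR3 and pGPD-SIR3 lay within 5 percentage points of each other. For yAT2554 the share was 66.5% and for yAT2476 64.2%, and the array of pGPD-SIR2, whose genotype lists no change at SIR3, had 38.65%. The A2Q arrays had 2.02% each. The arrays with both SIR2 and SIR3 overexpressed had 73.3% and 63.1%, the NAM arrays 49.2% and 48.8%, and the NAM dot1 arrays 49.0% and 58.3%. No test was run on these shares, and they depend on the threshold of 1. At a threshold of 0.5 the group means went from 25.1% to 41.3% in WT, from 2.02% to 7.09% in A2Q and from 38.65% to 72.91% in pGPD-SIR2, which then lay beside pTEF-SIR3 (73.22%) and pGPD-SIR3 (73.74%). At 1.5 WT was at 16.19% and pGPD-SIR2 at 26.29%, and dot1 (39.88%) was below NAM pGPD-SIR3 (41.46%) instead of above it.

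**Figure D2:**
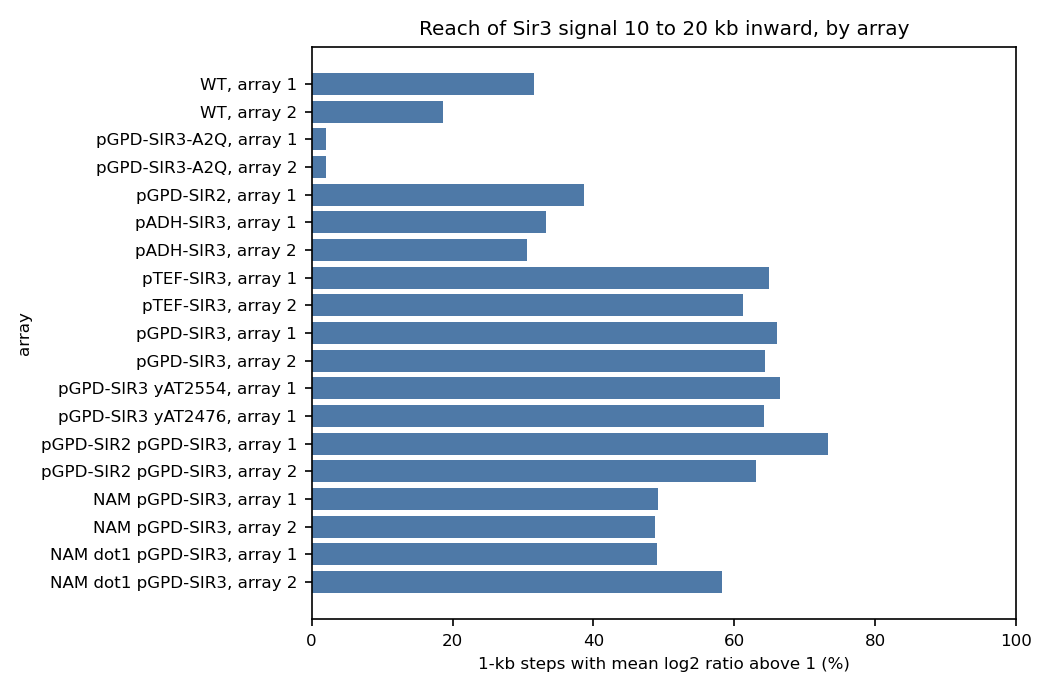
Percentage of 1-kb steps 10 to 20 kb inward with a mean log2 ratio above 1 (x axis, bars) on each of the 19 arrays (y axis). The arrays with the TEF or GPD promoter in front of wild-type SIR3, without NAM, lie between 61.3% and 73.3%, pGPD-SIR2 at 38.65%, the NAM arrays between 48.8% and 58.3%, and both A2Q arrays at 2.02%.

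The GPD promoter raised Sir3 above WT at most ends of the zone. Of the 28 windows, 21 were higher in pGPD-SIR3 than in WT and 0 were lower in limma, where 16.2% of all windows in the genome were higher and 1.92% lower. The median difference over the 28 windows was 1.74, against 0.02 over all windows. At 0 to 10 kb 18 of 26 windows were higher (69.2%), at 20 to 30 kb 17 of 31 (54.8%), and over 50 kb from an end 126 of 1051 were higher and 22 lower (14.1% called). By single probes, 431 of 754 members were higher and 0 lower, against 7.01% and 1.07% of all probes. The called share of the members fell along the zone, from 50 of 62 probes (80.6%) between 10 and 11 kb to 39 of 96 (40.6%) between 19 and 20 kb.

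At chr5L the level was 1.57 and 0.50 on the WT arrays and 6.43 and 5.93 on the pGPD-SIR3 arrays. This was the largest change of the zone, a difference of 5.15 (SE 0.42, adjusted p = 2.79e-05 in limma). The pTEF-SIR3 arrays were at 6.0 and 4.89, the pADH-SIR3 arrays at 1.19 and 1.16, and the single arrays of yAT2554 and yAT2476 at 5.26 and 5.32. Every array with the TEF or GPD promoter in front of wild-type SIR3 and no NAM was above both WT arrays there, and pADH-SIR3 lay between the WT arrays. The A2Q arrays were below both. DLD3, a 2-hydroxyglutarate transhydrogenase gene, holds the probe with the strongest gain of a gene at this end (chromosome 5, 17390 to 17446 in the file's coordinates), with 1.34 and -0.29 in WT and 6.55 and 5.77 in pGPD-SIR3. Its difference was 5.64 (SE 0.44, adjusted p = 9.92e-07 in limma).

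End chr3R lies between the silent cassette HMR and the telomere. Its level was 2.07 and 1.43 in WT and 6.66 and 6.11 in pGPD-SIR3, a difference of 4.64 (SE 0.50, adjusted p = 0.0001 in limma). Here pADH-SIR3 was also high, at 5.60 and 4.51, so that all SIR3 promoter groups were separated from WT. The probe in EMA35 (chromosome 3, 301477 to 301535) showed 1.61 and 0.59 in WT against 6.65 and 6.24 in pGPD-SIR3.

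On chr11L the WT arrays were at 1.17 and 0.52 and the pGPD-SIR3 arrays at 5.76 and 5.00, a difference of 4.53 (SE 0.48, adjusted p = 8.63e-05 in limma). The pADH-SIR3 arrays, at 0.35 and 0.26, were below both WT arrays, while pTEF-SIR3 had 5.05 and 4.79. The SRY1 probe (chromosome 11, 17579 to 17635), in the gene of 3-hydroxyaspartate dehydratase, went from 1.47 and 0.24 in WT to 6.64 and 5.87 in pGPD-SIR3. In 1-kb steps the signal at this end was higher further inward, from 4.08 at 10 to 11 kb to 6.40 at 19 to 20 kb in pGPD-SIR3, and from 4.49 to 5.24 in pTEF-SIR3.

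End chr15L was at 1.54 and 1.17 in WT and at 5.84 and 5.35 in pGPD-SIR3, a difference of 4.24 (SE 0.44, adjusted p = 7.6e-05 in limma). At the YOL162W probe (chromosome 15, 10453 to 10512), in a gene of the allantoate permease family, WT had 2.07 and 1.73 and pGPD-SIR3 6.65 and 6.04. In WT the signal at this end was 3.31 at 11 to 12 kb and 0.39 at 19 to 20 kb, whereas pGPD-SIR3 was still at 4.82 in that last step. pADH-SIR3 began at 4.62 in the first step and ended at 0.31, above WT at the outer edge and close to WT at the inner edge.

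**Figure D3:**
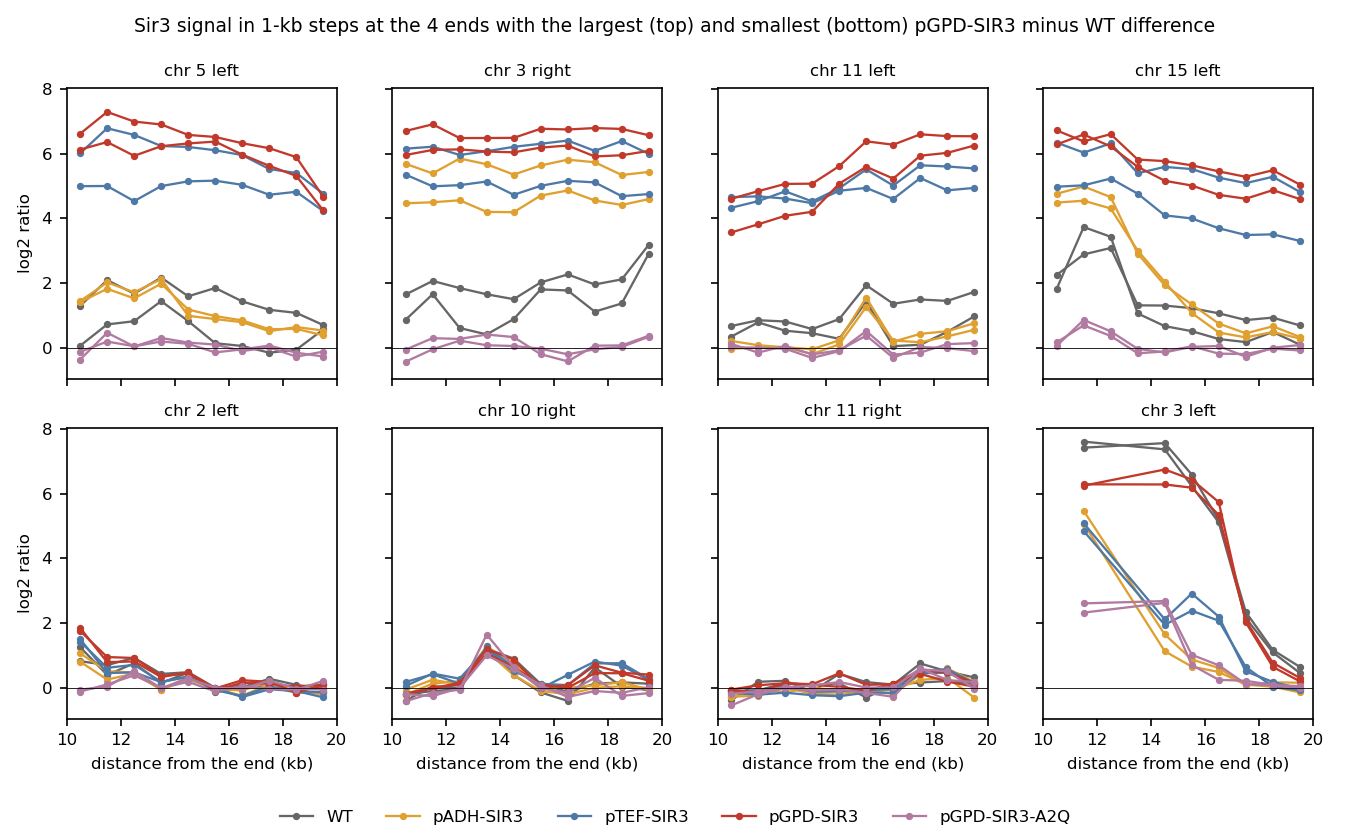
Log2 ratio of Sir3 (y axis, array median at 0) in steps of 1 kb from 10 to 20 kb (x axis) for the 4 ends with the largest (top row) and the 4 with the smallest (bottom row) difference between pGPD-SIR3 and WT, with 1 line per array and 1 colour per group. At chr15L the pADH-SIR3 lines start near the pGPD-SIR3 lines and end near the WT lines, and at chr3L the WT and pGPD-SIR3 lines run together.

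The smallest differences fell into 2 kinds of end. At 3 of them the window mean stayed at 0.69 or below on every array without NAM, apart from both arrays of pGPD-SIR2 pGPD-SIR3 at chr10R. End chr11R had 0.16 and 0.10 in WT and 0.13 and 0.16 in pGPD-SIR3, and its difference of 0.02 (SE 0.08, adjusted p = 0.911 in limma) changed sign in 4 of the alternative settings given in the closing section. End chr10R had 0.27 and 0.18 in WT and 0.32 and 0.43 in pGPD-SIR3 (difference 0.15, SE 0.23, adjusted p = 0.699 in limma). End chr2L had 0.32 and 0.32 in WT and 0.47 and 0.48 in pGPD-SIR3 (difference 0.16, SE 0.12, adjusted p = 0.438 in limma). Genes at these ends were FLO10, a flocculin, DAN4, a cell-wall mannoprotein, and MIX23, a mitochondrial protein. FLO10 and DAN4 did not pass the test in pGPD-SIR3 against WT, at differences of -0.10 and 0.17 for their probes with the highest pGPD-SIR3 level. MIX23, next to the outer edge of the zone at 10.2 kb, was higher by 0.87 (SE 0.24, adjusted p = 0.0406 in limma).

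End chr3L was the other kind, with Sir3 already high in WT. Its level was 3.48 and 3.67 in WT and 3.40 and 3.27 in pGPD-SIR3 (difference -0.25, SE 0.19, adjusted p = 0.441 in limma). This window starts in the HML region, and the step at 11 to 12 kb was at 7.52 in WT, above the 6.27 of pGPD-SIR3. In the strains with hmlΔ::HPH the window was lower, at 0.76 and 0.55 in pADH-SIR3, 1.38 and 1.25 in pTEF-SIR3 and 1.33 in yAT2554. At 10 to 13 kb these strains were still at 5.27, 4.97 and 4.40, and at 17 to 20 kb at 0.06, 0.205 and 0.154. At CHA1 (chromosome 3, 16071 to 16130), the serine and threonine deaminase gene beside HML, WT was at 6.09 and 5.66, pGPD-SIR3 at 5.73 and 5.83, pTEF-SIR3 at 2.60 and 2.46 and pADH-SIR3 at 0.90 and 0.65. In pADH-SIR3 and pTEF-SIR3 against WT, HML deletion and promoter change cannot be told apart, because all arrays of both groups carry the deletion. Behind the same GPD promoter, the window was at 1.33 with the deletion (yAT2554, 1 array). Without a listed deletion it was at 3.33 in yAT1254 and 2.80 in yAT2476 (1 array). These strains also differ in other listed markers, and the difference was not tested.

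End chr7L was the second altered end. Between 9976 and 15565, distal to the inserted telomere repeats, 17 member probes had a ratio at 0 or 1 of them on each array of the strains with the ADH4 insertion, and at 16 or 17 on each array of the other strains. The tested window rests on another 17 probes, of which 2 (11120 to 11435, the inner one in VEL1) also lie distal to ADH4 and 15 run from ADH4 inward (16122 to 20009). The pair of distal probes averaged 0.48 and 0.04 in WT, 3.40 and 3.33 in pGPD-SIR3 and 3.15 and 3.04 in pADH-SIR3. The insertion replaces the natural left end, so in WT and pGPD-SIR3 these 2 values cannot be read as Sir3 at this end. Which sequence the 2 probes measure in those strains was not tested, and they remain in the tested window. The 15 inner probes averaged 5.63 and 6.13 in WT, 6.70 and 6.17 in pGPD-SIR3 and at most 2.58 in pADH-SIR3. The whole window was at 5.02 and 5.41 in WT, 6.31 and 5.83 in pGPD-SIR3, 2.65 and 2.43 in pADH-SIR3, 5.33 and 4.48 in pTEF-SIR3 and 2.82 in pGPD-SIR2. Over the window WT was above both pADH-SIR3 arrays and the pGPD-SIR2 array, none of which carries the insertion. In pGPD-SIR3, which shares it with WT, the difference from WT was 0.86 (SE 0.38, adjusted p = 0.158 in limma).

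Against WT, pTEF-SIR3 gave much the same picture as pGPD-SIR3. The listed background of pTEF-SIR3 differs from that of WT and pGPD-SIR3, so promoter and strain cannot be told apart here. Of the 28 windows, 21 were higher than in WT and 1, chr3L, was lower in limma, against 21.4% and 3.67% of all windows. The median difference was 1.78. The largest gains were on the left ends of chromosome 5 (4.42, SE 0.42, adjusted p = 8.93e-05) and chromosome 11 (4.08, SE 0.48, adjusted p = 0.000177), and the fall at chr3L was -2.26 (SE 0.19, adjusted p = 8.76e-05), all in limma. By probes, 432 members were higher and 25 lower, against 8.69% and 1.6% of all probes. Between the strong promoters themselves, 1 of 28 windows was higher in pGPD-SIR3 than in pTEF-SIR3, again chr3L (2.02, SE 0.19, adjusted p = 0.00081 in limma), where 0.25% of all windows were higher and 0% lower. The median difference between them was 0.10, and 17 of 754 member probes were called (15 higher and 2 lower), against 0.181% and 0.197% of all probes. At an unadjusted p under 0.05, 5 of the 28 windows differed between them, and with the slide as a block 0 windows were called. A missed threshold does not show equal levels, and replicates of pTEF-SIR3 differed from each other by a median of 0.52 per window, up to 1.78 at chr4L.

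The step from pADH-SIR3 to pTEF-SIR3 covered most of the zone. In limma 18 of 28 windows were higher in pTEF-SIR3 and 0 lower, against 9.58% and 0.0833% of all windows, with a median difference of 1.27. On chr11L pTEF-SIR3 exceeded pADH-SIR3 by 4.62 (SE 0.48, adjusted p = 0.000258) and on chr5L by 4.27 (SE 0.42, adjusted p = 0.000223). Both are among 25 of the 28 windows without overlap between the arrays. Of the member probes, 369 were higher and 0 lower, against 3.99% and 0.0246% of all probes.

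Few ends differed between pADH-SIR3 and WT. The listed backgrounds differ as well, at HML and ADH4 among others, so promoter and strain cannot be told apart. In limma 5 of 28 windows were called, 3 higher and 2 lower, against 1.33% and 0.5% of all windows, and the median difference was 0.10. With each array also scaled by its internal spread the split was 4 higher and 1 lower. End chr3R was higher by 3.31 (SE 0.50, adjusted p = 0.0083), from 2.07 and 1.43 in WT to 5.60 and 4.51, and its call was lost without WT array 2 (adjusted p = 0.0605) or pADH-SIR3 array 1 (adjusted p = 0.112). End chr6R, home of the hexokinase gene HXK1, was higher by 2.27 (SE 0.26, adjusted p = 0.00185), from 1.14 and 0.38 to 3.04 and 3.02. End chr16L was the third. The windows that were lower were the altered left ends of chromosome 3 (-2.92, SE 0.19, adjusted p = 2.04e-05) and chromosome 7 (-2.68, SE 0.38, adjusted p = 0.00589). The chr7L call was lost with scaling by the internal spread (adjusted p = 0.173), with the slide as a block (adjusted p = 0.21) and without either pADH-SIR3 array (adjusted p = 0.0522 and 0.0604). By probes, 90 members were higher and 31 lower, against 1.27% and 0.507% of all probes, and the share that was higher went from 16 of 62 (25.8%) between 10 and 11 kb to 3 of 96 (3.12%) between 19 and 20 kb. Without array 1 of pADH-SIR3 2 windows were called, and 3 without its array 2 or without WT array 2.

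The 3 strains with pGPD-SIR3 can be set side by side, without a test because yAT2554 and yAT2476 have 1 array each. Of the 28 windows, 24 in yAT2554 and 21 in yAT2476 were within 1 log2 unit of the mean of yAT1254. In yAT2554 the 4 others were chr3L, where it carries hmlΔ::HPH (1.33 against 3.33), chr9R (3.43 against 2.02), chr7L (4.69 against 6.07) and chr4R (1.90 against 0.80). In yAT2476 the 7 others were chr14R (1.82 against 5.93), chr11L (4.01 against 5.38), chr7L (4.71 against 6.07), chr7R (1.06 against 2.38), and chr12L, chr2R and chr8L, which differed by -1.15, 1.14 and -1.13. Neither strain lists the ADH4 insertion at chr7L. At chr14R a run of 22 consecutive member probes between 765481 and 771484, which includes PDR18, a drug transporter gene, and YNR071C, had a ratio at 21 probes on yAT2476 and at 0 to 2 probes on each of the other 18 arrays. These 22 probes do not enter the tested window, which rests on the probes measured on all arrays, further inward.

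In the A2Q mutant the zone had no Sir3 signal above that of a typical probe at most ends. All 28 windows had a lower mean than in pGPD-SIR3, 25 of them past the limma threshold, against 20.8% of all windows lower and 9% higher, and the median difference was -2.60. End chr3R was at 0.11 and 0.01 in A2Q against 6.66 and 6.11 in pGPD-SIR3 (difference -6.33, SE 0.50, adjusted p = 3.92e-06). End chr5L was at 0.00 and 0.04 against 6.43 and 5.93 (difference -6.16, SE 0.42, adjusted p = 2e-06). The arrays did not overlap between A2Q and pGPD-SIR3 at any of the 28 windows. With 2 arrays per group, arrays can separate without a difference, and the share of such windows over the genome was not computed. By probes, 480 of 754 members were lower and 0 higher, against 8.54% and 0.561% of all probes.

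A2Q was also below WT, past the threshold only at the ends with the highest WT levels. Of the 28 windows, 4 were lower and 0 higher in limma, against 5.25% and 4.5% of all windows. All 28 had a lower mean in A2Q. At chr7L A2Q had 0.18 and 0.20 against 5.02 and 5.41 in WT (difference -5.03, SE 0.38, adjusted p = 1.84e-05). At chr14R it had -0.03 and 0.11 against 3.03 and 3.54 (difference -3.24, SE 0.37, adjusted p = 0.000466). The others were the left ends of chromosome 3 (-3.01, SE 0.19, adjusted p = 7.51e-06) and chromosome 12. These 4 ends had the highest WT levels of the 28. Signal remained in A2Q at 10 to 13 kb on 2 of them, at 3.879 on chr12L and 2.465 on chr3L, against 7.814 and 7.52 in WT. With the deposit or the slide as a block, 8 or 2 windows were called, and with the slide chr14R was not (adjusted p = 0.148). At 0 to 10 kb 22 of 26 windows were lower in A2Q than in WT (84.6%). By probes, 106 members were lower and 0 higher, against 2.94% and 1.25% of all probes.

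With SIR2 alone overexpressed, few windows differed from WT. This strain (yAT1667) also differs from WT in its listed background, so extra SIR2 and strain cannot be told apart. Against WT, 2 windows were higher and 1 lower in limma, against 3.25% and 1.75% of all windows, with a median difference of 0.35 over the 28 windows. End chr11R was at 0.69 against 0.16 and 0.10 in WT (difference 0.56, SE 0.10, adjusted p = 0.0117) and chr5R at 0.60 against 0.00 and 0.15 (difference 0.53, SE 0.10, adjusted p = 0.0128). The fall was at chr7L (-2.40, SE 0.46, adjusted p = 0.0161), where the pGPD-SIR2 strain lacks the ADH4 insertion of WT. By probes, 48 members were higher and 14 lower, against 2.84% and 2.09% of all probes. With the arrays also scaled by their internal spread the splits were 4 higher and 0 lower for windows and 40 higher and 4 lower for probes. At 26 of 28 windows the pGPD-SIR2 array was above the WT mean, but it is a single array and its own spread is not known, and with the slide as a block 0 windows were called.

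With SIR2 and SIR3 both overexpressed, Sir3 was lower than in pGPD-SIR3 at ends that mostly had high levels there, and higher at 3 ends. The double strain (yAT1668) also differs from yAT1254 in its listed background, so extra SIR2 and strain cannot be told apart. Compared with pGPD-SIR3, 3 windows were higher and 12 lower in limma, against 20.7% and 14.8% of all windows, and the median difference was -0.30. End chr4L was at 3.91 and 3.14 against 1.92 and 1.78 (difference 1.68, SE 0.43, adjusted p = 0.0119), but its call was lost without array 2 of pGPD-SIR3 (adjusted p = 0.0672) or array 1 of pGPD-SIR2 pGPD-SIR3 (adjusted p = 0.0821). End chr4R was at 2.50 and 1.67 against 0.91 and 0.68 (difference 1.29, SE 0.20, adjusted p = 0.000753). End chr10R was at 2.14 and 1.13 against 0.32 and 0.43, and no other array was above 0.62 there. No array of the double overexpression overlapped with pGPD-SIR3 at these 3 ends, which are among 18 of the 28 windows without overlap. At chr4R the signal in the double overexpression stayed between 1.70 and 2.95 in every 1-kb step, whereas pGPD-SIR3 lay between 0.27 and 1.96. Levels above those of yAT1254 were also measured without extra SIR2, at 1.90 on chr4R in yAT2554, and on the left end at 2.82 in yAT2554, 2.84 in yAT2476 and 2.96 on array 1 of pTEF-SIR3.

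The largest falls with extra SIR2 were at the left ends of chromosome 7 (-2.66, SE 0.38, adjusted p = 0.000481) and chromosome 16 (-1.90, SE 0.34, adjusted p = 0.00173). The former end carries the ADH4 insertion in pGPD-SIR3 and not in the double strain. At chr16L the double overexpression had 3.47 and 2.74 against 5.27 and 4.75. Levels below the mean of yAT1254 were also measured without extra SIR2, on the single arrays of yAT2554 and yAT2476. They were at 4.69 and 4.71 against 6.07 at chr7L, and at 4.19 and 4.45 against 5.01 at chr16L. By probes, 61 members were higher and 231 lower, against 7.01% and 4.33% of all probes. The replicates of the double overexpression came from different deposits and were the least alike of all groups, with a median difference of 0.75 per window and up to 3.06 at chr2R. Leaving out array 1 of pGPD-SIR3 gave 8 called windows, and leaving out array 1 of the double overexpression gave 19. With the slide as a block, 2 windows were higher and 0 lower, so that none of the 12 falls was called, with an adjusted p of 0.066 at chr7L and 0.169 at chr16L.

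**Figure D4:**
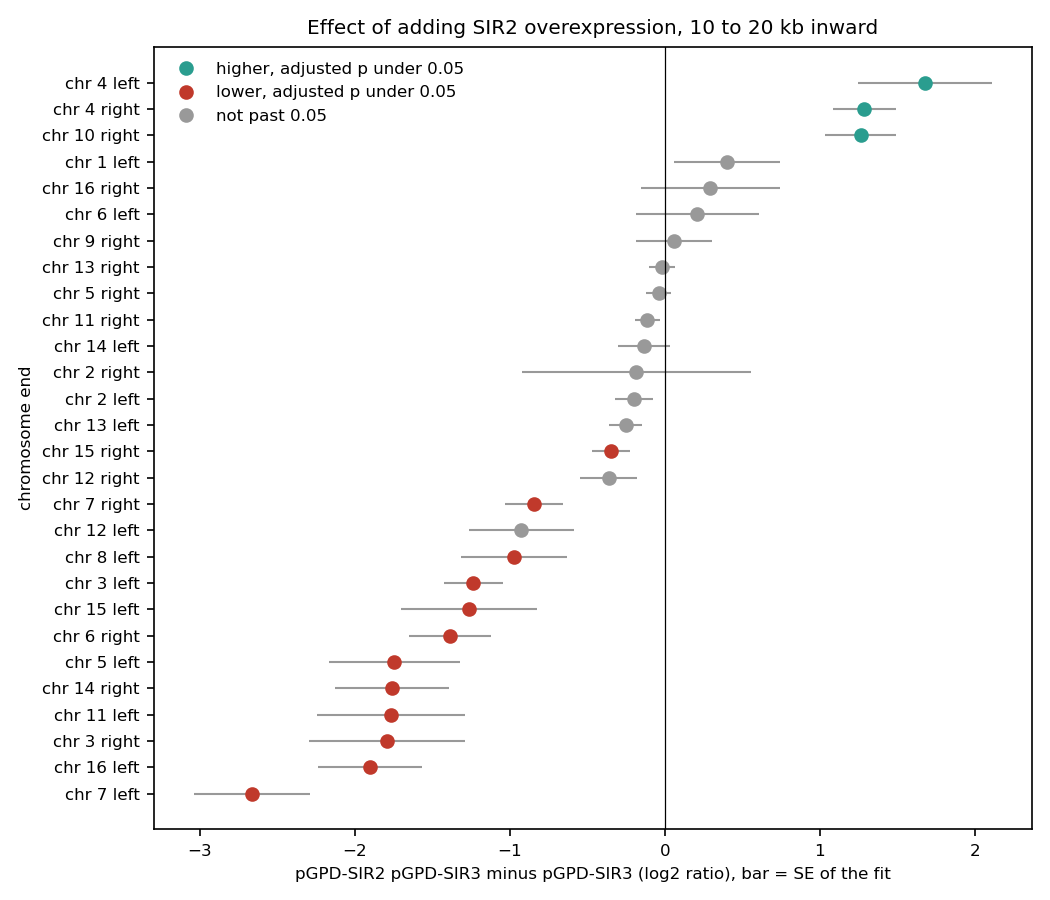
Difference in log2 ratio between pGPD-SIR2 pGPD-SIR3 and pGPD-SIR3 (x axis, points, with the SE of the limma fit as bars) for the 28 ends (y axis). The points past an adjusted p of 0.05 are 3 higher (left and right ends of chromosome 4, right end of chromosome 10) and 12 lower, and chr7L, altered in pGPD-SIR3, lies lowest at -2.66.

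Single genes were read at their leading probe. At chr4L the probe in YDL242W (19088 to 19146) was higher by 2.38 (SE 0.50, adjusted p = 0.0075 in limma), with 4.20 and 3.18 in the double overexpression against 1.41 and 1.21. STL1, the glycerol proton symporter gene on chr4R (1509364 to 1509423), was higher by 1.54 (SE 0.21, adjusted p = 0.000514), with 2.07 and 1.16 against 0.11 and 0.04. YAL064W-B on chr1L was higher by 1.52 (SE 0.31, adjusted p = 0.00607), although the window of that end was not called. The largest falls in genes were at ADH4 (-3.56, SE 0.37, adjusted p = 6.73e-05), the altered locus itself, at RET2, a coatomer subunit gene on chr6R (-2.52, SE 0.71, adjusted p = 0.0365), and at COS9 (-2.19, SE 0.43, adjusted p = 0.00483). The RET2 probe was at -0.23 and 0.38 in the double overexpression, at 3.04 and 2.14 on the pGPD-SIR3 arrays and at 3.04 and -0.31 on the WT arrays, so its replicates in WT disagreed.

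After release from NAM, Sir3 was lower in the zone than in the same strain without NAM. Against pGPD-SIR3 without NAM, 13 of 28 windows were lower and 0 higher in limma, against 10.2% and 16.6% of all windows, with a median difference of -1.09. End chr5L was at 2.30 and 2.64 against 6.43 and 5.93 (difference -3.71, SE 0.42, adjusted p = 0.00122), and chr11L at 2.17 and 2.52 against 5.76 and 5.00 (difference -3.03, SE 0.48, adjusted p = 0.00585). Arrays did not overlap at either end, and these are among 26 of the 28 windows without overlap. At chr3L, which holds HML in both groups, the level was 3.09 and 3.56 against 3.40 and 3.27, a difference of 0.00 with overlapping arrays, but with the median over the probes of the window it was called higher (0.56, adjusted p = 0.0284). By probes, 9 members were higher and 268 lower, against 3.44% and 3.26% of all probes. All NAM arrays were in the later deposit and all pGPD-SIR3 arrays without NAM in the first, so treatment and deposit cannot be told apart. Leaving out array 1 of pGPD-SIR3 or array 1 of NAM pGPD-SIR3 reduced the called windows to 2, and leaving out array 2 of pGPD-SIR3 to 8. With the deposit or the slide as a block, 2 or 0 windows were called. The chr11L call was lost in each of these settings except the one without array 2 of pGPD-SIR3, and the chr5L call with the slide as a block (adjusted p = 0.364).

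Without DOT1 after NAM release, Sir3 was higher at some ends of the zone and lower at more of them. Compared with NAM pGPD-SIR3, 4 windows were higher and 13 lower in the dot1 arrays in limma, where 32.6% of all windows in the genome were higher and 38% lower, so that most windows of the genome were called as well. The median difference was -0.52 over the 28 windows. At 0 to 10 kb 0 windows were higher and 16 of 26 lower, and at 20 to 30 kb 13 of 31 were higher and 5 lower, so the split of the zone stood between those of its neighbours. All 4 NAM arrays belong to the later deposit. The probes over 50 kb from an end had a wider spread on the dot1 arrays, 0.54 and 0.55 (median absolute deviation) against 0.27 to 0.39 on the other 17. Scaled by that spread, 4 windows were higher and 16 lower, with the same 4 higher and 12 of the 13 lower shared. Leaving out array 2 of NAM pGPD-SIR3 or array 1 of dot1 gave 11 called windows.

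The 4 ends with a gain were ends where the window mean was at most 0.69 on each of the other 17 arrays. End chr2L was at 2.56 and 3.05 in dot1 against 0.64 and 0.62 with DOT1 (difference 2.18, SE 0.12, adjusted p = 7.52e-08). End chr13L was at 1.85 and 2.28 against 0.53 and 0.57 (difference 1.51, SE 0.11, adjusted p = 4.7e-07), and the right ends of chromosomes 13 and 11 followed with 1.02 and 0.34. The arrays did not overlap at any of the 4 ends, which are among 24 of the 28 windows without overlap. In 1-kb steps dot1 was between 2.42 and 3.11 throughout chr2L, while the DOT1 arrays fell from 2.53 at 10 to 11 kb to 0.11 at 19 to 20 kb. At chr13L dot1 was between 1.77 and 2.40 in each step, and DOT1 fell from 3.00 to 0.22.

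The ends with the largest loss had high levels with DOT1. End chr15L was at 1.05 and 1.27 in dot1 against 3.64 and 4.51 with DOT1 (difference -2.91, SE 0.44, adjusted p = 0.000135), and chr8L at 1.33 and 1.82 against 3.03 and 3.75 (difference -1.81, SE 0.34, adjusted p = 0.000672). On chr15L dot1 had 2.77 at 10 to 11 kb and between -0.08 and 0.52 from 15 kb on, where the DOT1 arrays were between 2.17 and 3.85. End chr3L did not pass the test (3.13 and 3.67 against 3.09 and 3.56, difference 0.07, adjusted p = 0.76), but scaled by the internal spread it was called lower (-5.15 in units of that spread, adjusted p = 0.00127), and its sign also turned in 5 other settings. The steps along the window differed in opposite directions. In the step at 11 to 12 kb dot1 was at 3.62 against 5.42, and in the step at 19 to 20 kb at 2.73 against 0.76. These steps were not tested separately. For the probe of MRC1, a replication checkpoint gene at the inner side of that end, the difference was 2.24 (SE 0.17, adjusted p = 4.06e-07 in limma).

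**Figure D5:**
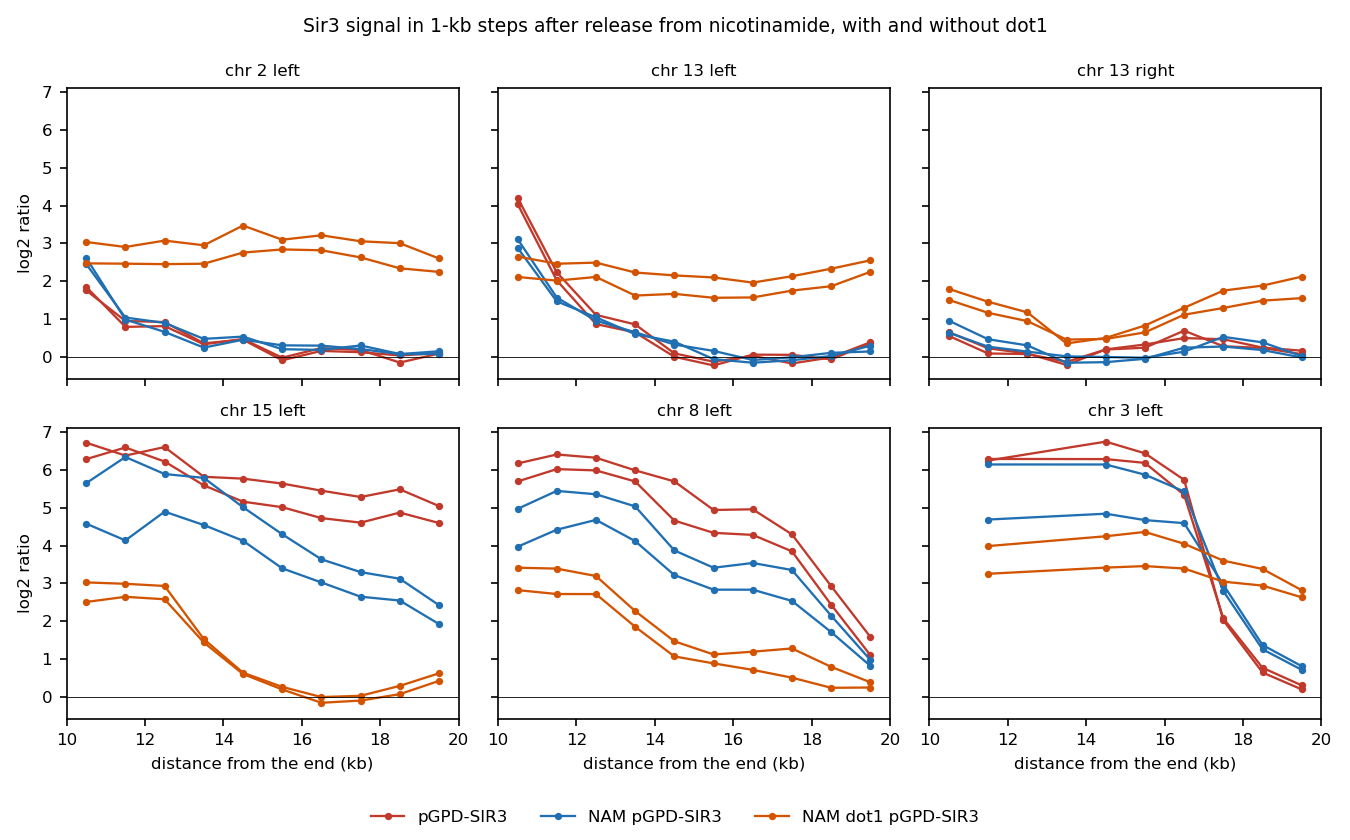
Log2 ratio of Sir3 (y axis, array median at 0) in steps of 1 kb from 10 to 20 kb (x axis) at 6 ends for pGPD-SIR3, NAM pGPD-SIR3 and NAM dot1 pGPD-SIR3, with 1 line per array. At chr2L the dot1 lines are flat between 2 and 4 while the others drop to near 0, at chr15L they lie between -0.16 and 0.62 from 15 kb on while the others stay at 1.92 or above, and at chr3L they cross the NAM lines.

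By probes, 152 members were higher and 281 lower in dot1, against 21.2% and 16.8% of all probes. Scaled by the internal spread, the split was 81 higher and 308 lower. Probes at least 100 bp inside a placed gene are set here beside the remaining probes, which cover intergenic sequence, gene edges and unplaced genes. Of 268 member probes inside a placed gene, 34% were higher and 19% lower, and of the other 486, 12.6% were higher and 47.3% lower. The corresponding shares over the genome were 26.8% and 9.86% inside genes, and 13.2% and 26.6% elsewhere, so the direction of this contrast in the zone was also that of the genome, and the difference itself was not tested. In pGPD-SIR3 against WT the order was the other way round for gains, with 38.8% of members inside genes and 67.3% of the others higher, against 4.27% and 10.9% over the genome (0.75% and 1.52% lower).

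Genes of the zone were also counted as a whole. A gene was counted as higher or lower where at least 50% of its member probes measured on all arrays were called so. The count covers 65 genes with at least 2 member probes and 1 or more measured on all arrays. ADH4 and PAD1 had 1 such probe each. In pGPD-SIR3 against WT 32 of 65 genes were higher and 0 lower, against 5.01% and 0.719% of 4175 genes in the genome, with a median difference of 0.71 over the 65. They included DLD3 (mean over its probes 5.45), the sporulation gene RMD6 (5.24), the glycerophosphoinositol permease gene GIT1 (4.77), HXK1 (4.6), the heme and protoporphyrin transporter gene PUG1 (3.97) and AGP3, an amino acid permease gene (3.60). pTEF-SIR3 gave 32 higher and 3 lower (7.02% and 0.335% of genes in the genome). pADH-SIR3 gave 5 higher and 2 lower (0.599% and 0.24%). The 5 were GIT1, EMA35 and YCR102C on chr3R, HXK1, and YLR460C on chr12R. The 2 lower genes were ADH4 and VAC17, which lie at the altered ends.

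In A2Q 37 genes were lower than in pGPD-SIR3 and 0 higher (5.99% of genes in the genome lower and 0.287% higher), and 7 were lower and 0 higher than in WT (1.41% and 0.311%). pGPD-SIR2 had 4 higher genes than WT and 1 lower (1.13% and 1.22%). With SIR2 added to SIR3 4 genes were higher and 18 lower than in pGPD-SIR3 (4.67% and 2.04% in the genome). The 4 were STL1, the phenylacrylic acid decarboxylation genes PAD1 and FDC1, and AAD4, all on chromosome 4. After NAM release 3 were higher and 19 lower (2.18% and 2.61%), and the 3 were MIX23, VAC17 and MRC1 at the left ends of chromosomes 2 and 3. From pADH-SIR3 to pTEF-SIR3 29 genes were higher and 0 lower (2.95% and 0% of genes in the genome), and from pTEF-SIR3 to pGPD-SIR3 2 were higher and 0 lower (0.12% and 0.0719%).

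In dot1 19 genes were higher and 18 lower than with DOT1 after NAM release, against 21.3% and 13.7% of genes in the genome. The largest gain was at PKC1, the protein kinase C gene, where all 13 member probes were higher. Its leading probe (chromosome 2, 16797 to 16851) was at 3.01 and 3.40 in dot1 and at 0.34 and 0.33 with DOT1, a difference of 2.87 (SE 0.13, adjusted p = 4.45e-08 in limma). No array without the dot1 allele was above 0.49 there. Around PKC1, SRO77, an exocytosis gene, and SEA4, a gene of the TORC1 regulatory SEA complex, were higher by means of 1.97 and 2.37. At chr13L ERG13, the gene of HMG-CoA synthase, had a leading probe (19716 to 19775) at 2.27 and 2.67 in dot1 against 0.25 and 0.03 (difference 2.33, SE 0.19, adjusted p = 6.24e-07 in limma). RSC9, a subunit gene of the RSC chromatin remodeller, and ERO1, the thiol oxidase gene of the endoplasmic reticulum, were higher there by means of 2.09 and 1.19.

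Genes that lost signal in dot1 were CSS3 on chr15L (17492 to 17551), with -0.21 and -0.11 in dot1 against 2.50 and 3.2 (difference -3.01, SE 0.48, adjusted p = 0.000244), SRY1 (-2.44, SE 0.48, adjusted p = 0.0013) and DFP4 on chr8L (-2.43, SE 0.43, adjusted p = 0.000506), all in limma. SRY1 was at 1.01 and 1.03 in dot1 and at 3.21 and 3.72 with DOT1. Of the 5 iron genes 2 were higher and 2 lower, near the split of the zone (19 and 18 of 65). FET4, the low-affinity iron transporter gene, and FRE5, a ferric reductase gene, were higher by 0.90 and 0.99, and the siderophore transporter genes ENB1 and ARN1 were lower, at -1.42 and -0.52. FRE2, another ferric reductase gene, was not called, at -0.31.

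Gene lists were counted over genes with at least 2 member probes. The lists were known from earlier results of these data, so their direction is no independent evidence, and each holds 5 genes or fewer. The counts stand beside 32 of 65 genes higher in the zone and 5.01% in the genome, and no list was tested against the zone. In pGPD-SIR3 against WT both sugar genes were higher (IMA1, an isomaltase gene, by 2.89 and the regulator gene MAL13 by 2.27), as were 3 of 5 iron genes (ENB1 4.38, FRE2 3.58 and ARN1 1.19, with FET4 and FRE5 not called). The amino acid and sulfur genes DLD3 and MMP1, an S-methylmethionine permease gene, were both higher, MMP1 by 2.58. The single members of the COS family (COS9, 4.87), of the aryl-alcohol dehydrogenases (AAD4, 1.93) and of the phosphate regulon (PHO89, 3.50) were higher. DAN4, the single gene of the seripauperin, DAN and TIR list, and FLO10, the single flocculin, were not called, at -0.01 and -0.05. No thiamine or vitamin B6 gene had 2 member probes. In pADH-SIR3 against WT 0 genes of any list were called. Members of the COS, DAN, IMA, MAL, AAD and FLO families have close relatives elsewhere in the genome, and signal from those copies cannot be told apart from their own on these probes.

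The 3 ends without a tested window had too few probes for more than a description. The single probe at chr10L, 19.6 kb in, was at 1.87 and 1.00 in WT and at 7.08 and 5.88 in pGPD-SIR3. The pair of probes at chr9L averaged 1.19 and 0.11 in WT and 5.89 and 5.17 in pGPD-SIR3. At chr8R the only probe was at 0.58 and 0.67 in WT and at 1.94 and 1.67 in pGPD-SIR3, and it was highest in the double overexpression, at 2.71 and 2.36. At all 3 ends the pGPD-SIR3 arrays lay above both WT arrays and both A2Q arrays at 0.74 or below.

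Batches were compared where groups shared one. For each comparison with arrays of both groups in the same deposit or on the same slide, every called window kept its direction within that deposit or slide. For pGPD-SIR3, A2Q and pGPD-SIR2 against WT, A2Q against pGPD-SIR3, and dot1 against NAM pGPD-SIR3, that deposit held all arrays of both groups. Their direction by deposit was therefore fixed in advance. All other cases reused a part of the arrays that made the calls, so they are no independent check. For pTEF-SIR3 against pADH-SIR3 the median difference over the 28 windows was 1.56 in the first deposit and 0.82 in the later one. NAM pGPD-SIR3 and pGPD-SIR3 shared neither.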

How the data were processed

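Per the labels, chromatin precipitated with anti-Sir3 (Cy5) and whole cell extract (Cy3) were amplified and hybridised together. The authors deposited, per probe, a linear ratio, a rescaled ratio with missing probes filled, and a score (the ratio minus its array mean over its array SD). On 5 arrays the deposited ratio columns hold other values as well, a few ratios at or below 0, which were set to missing. For scanner, spot filter and genome build, nothing is given in the sources used here. From the unfilled ratio, log2 was taken and each array's median subtracted (median ratios before log2 of 0.0292 to 0.942), without loess or quantile normalization.

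Windows of 10 kb counted inward from both ends, with at least 3 probes on all 19 arrays, and single probes were each fitted with limma 3.58.1 in R 4.3.3: 1 mean per group, 8 residual degrees of freedom (prior 2.52 for windows and 5.64 for probes), Benjamini-Hochberg over the whole table at 0.05. Tested on simulated data for pGPD-SIR3 against WT, the probe fit (36515 probes) recovered 83.6% of changes of log2 1 and 100% of 2 and 4, and the window fit (1200 windows) 100% of all sizes. The changed features were drawn at random over the genome, with noise independent between arrays. These rates therefore do not give the recovery at the ends of the zone. Probes were assigned to R64 genes with a margin of 100 bp inside the gene, and 450 bp on 1 side for chromosomes 3, 6, 10 and 11, where the files' coordinates were shifted; positions are printed as in the files. Tables were read with Python 3.11.15.

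Named ends were the 4 with the largest and the 4 with the smallest difference between pGPD-SIR3 and WT, the 2 altered ends, and for each other comparison the 2 with the largest change past 0.05 in each direction. Named genes were the one with the leading probe at each end of the first kind, and the 3 largest changes each way for dot1 and for SIR2 with SIR3; other genes were chosen after their values were seen. The members, lists and rules were chosen with earlier results of these data known. Alternatives were another scaling, ratio column, probe filter and summary, deposit, slide and replicate number as blocks, the altered ends left out, 2-group fits, and each array left out in turn.

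Same-numbered arrays of different groups had correlations of their deviations from the group means between -0.692 and 0.812 over the 1200 windows, so the numbers do not pair the arrays over all groups. In pADH-SIR3, pTEF-SIR3 and the double overexpression, array 1 is in the first and array 2 in the later deposit, and these 3 pairs of groups had correlations of 0.432 to 0.812, so there the number follows the deposit, which was fitted as a block of its own.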

Additional observations from a re-analysis of the deposited data

How the results depend on the processing

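The number of arrays limits every comparison, and a difference missed by the test is not shown to be absent. Of the counts of called windows and probes recomputed with all arrays, 159 stayed within 1.5 times the reported count and 28 did not. Of the differences at the named ends, 387 kept their direction and side of the threshold, 16 lost and 3 gained the call, and 13 changed sign. Of the shares of 1-kb steps, 19 moved by less than the spread between replicates (the binomial interval for single arrays) and 25 by more, most of them with the threshold. For each change listed here the cause was not tested, except that leaving out chr3L and chr7L removes those windows.

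With the slide as a block, called windows were 0 for pGPD-SIR3 against pTEF-SIR3, 2 for A2Q against WT, 0 for pGPD-SIR2 against WT, 2 for SIR2 with SIR3 against pGPD-SIR3 and 0 for NAM against pGPD-SIR3. Called member probes were then 243 for pADH-SIR3 against WT, 45 for A2Q against WT, 101 for pGPD-SIR2 against WT, 133 for SIR2 with SIR3 and 34 for NAM. With the deposit as a block, windows were 8 for A2Q against WT, 5 for pGPD-SIR2 and 2 for NAM, and NAM had 87 probes. With arrays scaled by the median absolute deviation of internal probes, NAM had 6 windows and 180 probes, and A2Q against WT had 48 probes. Without chr3L and chr7L, windows were 3 for pADH-SIR3 against WT, 0 for pGPD-SIR3 against pTEF-SIR3 and 2 for A2Q against WT, and pGPD-SIR3 against pTEF-SIR3 had 5 probes. With only the 2 groups compared, windows were 9 for pADH-SIR3, 11 for A2Q and 9 for pGPD-SIR2 against WT and 21 for NAM, and probes were 11 for pGPD-SIR3 against pTEF-SIR3, 32 for pGPD-SIR2 and 437 for NAM.

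With the replicate number as a block, the called windows were 5, 22, 21, 18, 1, 4, 25, 3, 15, 13 and 17 in the order pADH-SIR3, pTEF-SIR3 and pGPD-SIR3 against WT, pTEF-SIR3 against pADH-SIR3, pGPD-SIR3 against pTEF-SIR3, A2Q against WT, A2Q against pGPD-SIR3, pGPD-SIR2 against WT, SIR2 with SIR3, NAM and dot1. These are the same counts as without the block. The numbers follow the deposit in pADH-SIR3, pTEF-SIR3 and the double overexpression and pair no other arrays by the labels, and with the deposit as a block 21 windows were called for pTEF-SIR3 against pADH-SIR3 (18 without). Member probes under the replicate block were 120, 463, 433, 371, 18, 110, 485, 57, 307, 289 and 439 in the same order.

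Leaving out 1 array at a time gave, in that order, windows of 2 to 5, 19 to 21, 17 to 18, 12 to 18, 1 to 1, 3 to 4, 22 to 22, 3 to 4, 8 to 19, 2 to 14 and 11 to 17. Probes ranged over 84 to 156, 414 to 459, 378 to 446, 292 to 386, 11 to 15, 60 to 144, 448 to 454, 70 to 111, 146 to 322, 83 to 219 and 312 to 376. The low of 60 probes for A2Q against WT was without A2Q array 1, the high of 111 for pGPD-SIR2 without WT array 1, the low of 146 for SIR2 with SIR3 without pGPD-SIR3 array 1, and the low of 11 for pGPD-SIR3 against pTEF-SIR3 without pTEF-SIR3 array 2. For NAM the probes were 98 and 83 without array 1 of pGPD-SIR3 or of NAM pGPD-SIR3.

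All sign changes were at windows that had not passed the test. In units of the internal deviation they were 0.893 at chr7L for pTEF-SIR3 against WT, 0.932 at chr3L for pGPD-SIR3 against WT, 1.162 at chr3L for pGPD-SIR2 against WT, 0.99 at chr3L for NAM, and -5.151 at chr3L for dot1 (adjusted p = 0.00127 in limma). With the median over the probes of a window they were 0.049 at chr3L and -0.056 at chr11R for pGPD-SIR3 against WT, 0.558 at chr3L for NAM (adjusted p = 0.0284 in limma) and -0.099 at chr3L for dot1. The rescaled and filled ratio gave -0.274 and all measured probes -0.279 at chr3L for dot1, the slide block -0.03 at chr11R for pGPD-SIR3 against WT, and the deposit block 0.229 at chr3L for NAM. Leaving out 1 array at a time gave -0.742 to 0.11 at chr7L for pTEF-SIR3 against WT, -0.011 to 0.041 at chr11R for pGPD-SIR3 against WT, -0.237 to 0.231 at chr3L for NAM and -0.199 to 0.337 at chr3L for dot1.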
